A study of Saccharomyces cerevisiae with 26 samples.

Results

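An sfp1 deletion strain of budding yeast was compared with its reference strain in glucose-limited chemostats at steady state, before any glucose pulse. The arrays were chosen by their strain and steady state labels, 3 for each strain, which makes 6 of the 26 arrays of the series. The reference strain is CEN.PK113-7D, a haploid laboratory strain of genotype MATa MAL2-8c SUC2. The deletion strain has the same mating type and the same MAL and SUC alleles, carries a mutated leu2 allele, and has sfp1Δ::KlLEU2, in which the Kluyveromyces lactis LEU2 gene stands in place of SFP1. The strains therefore differ at LEU2 as well as at SFP1, and the effects of these loci cannot be told apart here. Both were grown aerobically at pH 5.0 and 30 °C, stirred at 800 rpm with dissolved oxygen above 60% and diluted at 0.10 per h, and were sampled as independent cultures after 10 volume changes. The labels do not say whether the deletion strain rests on 1 transformant. The other arrays of the series followed an anaerobic pulse of 200 mM glucose and are used below only as a second set of values for the same genes.

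Sfp1 is a zinc finger transcription factor that enters the nucleus when nutrients are plentiful and the TOR and protein kinase A pathways are active. It is known as an activator of the ribosomal protein and ribosome biogenesis genes and as a regulator of the cell size at which division starts. Cells without it grow slowly and are small in batch culture. In a chemostat the dilution rate sets the growth rate, so both strains grew equally fast here, which asks which transcripts depend on the genotype when growth does not differ. The arrays report each transcript as a share of the labelled RNA, so the total amount of RNA per cell does not enter.

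SFP1 gave signals of 100.6, 99.3 and 115.8 in reference replicates 1 to 3 and of 1.1, 0.2 and 0.2 in deletion replicates 1 to 3. All deletion arrays lay below the floor of 12, to which lower signals were raised before log2 was taken, and the difference was at least 8.75-fold (adjusted p = 7.8e-06). Adjusted p-values are those of limma's moderated test over 5218 genes with Benjamini-Hochberg adjustment, and all differences are log2 of deletion minus reference with limma's standard error (SE). LEU2 gave 1123.3, 1526.7 and 1173.8 in the reference and 501.1, 471.2 and 495.5 in the deletion strain, a fall of 2.58-fold (log2 -1.37, SE 0.134, adjusted p = 0.00081). The other probe sets of LEU2 fell by 2.36 and 3.32 on the log2 scale. The deletion was thus visible at SFP1 on every array. The LEU2 signal was lower on every deletion array, but whether this goes with the mutated leu2 allele or with SFP1 cannot be told apart. The 3 genes on each side of SFP1 in the RefSeq gene table (SKI2, BDF1 and DUS3 on one side, SEI1, DUS4 and RPL31B on the other) did not pass the threshold, with adjusted p from 0.09 to 0.72. NFS1, DCC1 and BUD3, on one side of LEU2, did not pass it either, and the genes listed on its other side have no probe set of their own here. Probe set 9937_at, which has no gene in the annotation and is numbered between those of DUS3 and SEI1, rose and is described below.

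Deletion replicate 1 stood apart in 2 of 3 sets of control probes. The ratio of the signals at the 5′ and 3′ ends of ACT1 was 0.147 on that array, 0.663 and 0.742 on the other deletion arrays and 0.778 to 0.923 on the reference arrays. For SRB4 it was 0.0683 against 0.222 on both other deletion arrays and 0.231 to 0.252 in the reference, with 5′ signals below 12 on all 6 arrays. The same ratio of the TATA-binding protein gene SPT15 did not set it apart, at 0.428 against 0.456 and 0.384 on the other deletion arrays and 0.496 to 0.537 in the reference. Over all genes, replicate 1 was the highest of the 3 deletion arrays for 56.8%. For 86 genes it lay over 2-fold below the mean log2 of the other deletion arrays. Reference replicate 2 lay over 2-fold below the mean log2 of the other reference arrays for 120 genes. Replicate arrays correlated at 0.9738 to 0.9918 in the reference and at 0.9677 to 0.9861 in the deletion strain across genes, which are not independent replicates. Because of these arrays, the counts of gene groups below are also given without deletion replicate 1.

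At an adjusted p of 0.05, 983 of the 5218 genes passed the threshold, 18.8% of those tested. Of these, 682 were higher in the deletion strain (13.1%) and 301 were lower (5.77%). The 3 deletion arrays did not overlap the 3 reference arrays for any of the 983 genes, and such separation was found for 42.2% of all genes tested. Where it is stated below for a gene past the threshold, it therefore adds nothing to the call. Most differences were small, with 86 of the rises and 78 of the falls reaching 2-fold. Without deletion replicate 1, 222 of the rises and 136 of the falls also passed, and all 682 and 301 kept their sign. In that smaller fit 7.01% of genes were called, 4.36% higher and 2.65% lower. The balance of the directions depended on the scaling. The median difference over all genes was 0.14 with the signals as deposited and -0.015 once all arrays were given a common median, and then 283 of the 682 rises and all 301 falls also passed. That scaling lowered the differences and so made falls larger, which leaves it a check of the rises only. With a common median 13.9% of genes were called, 5.42% higher and 8.45% lower. Differences of about that size are therefore read against the median of all genes. Genes named below as risen also passed with a common median unless stated otherwise.

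The difference also moved with gene length. The median was 0.29 for genes under 500 bp, of which 25.2% were called higher and 3.91% lower, and 0.04 for genes of 3000 bp and over, of which 5.4% were called higher and 7.78% lower. Without deletion replicate 1 the medians were 0.25 and 0.00, so the slope was present in the other arrays too. Its part in the results was not tested, and the median gene length of the larger groups is given beside their counts, against 1251 bp for all genes tested.

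**Figure D1:**
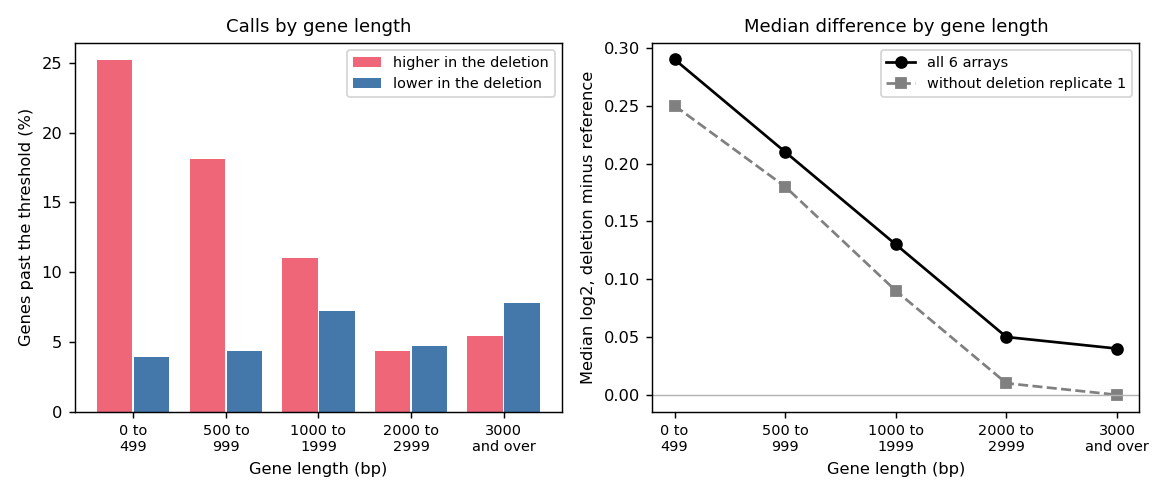
Left, the percentage of genes past an adjusted p of 0.05 in each class of gene length (bp), higher (red) or lower (blue) in the deletion strain. Right, the median log2 difference, deletion minus reference, in the same classes with all 6 arrays (black) and without deletion replicate 1 (grey). Short genes had the larger medians, 0.29 under 500 bp against 0.04 at 3000 bp and over.

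The clearest group outside protein synthesis was that of the mating genes. Haploid yeast of mating type a makes a-factor and carries the receptor for α-factor, and binding of α-factor starts a kinase cascade that arrests the cell cycle and switches on genes for cell fusion. Genes for α-factor itself and for the a-factor receptor are normally silent in these cells. All 7 a-cell genes rose (100%, against 13.1% of all genes), 6 of them also with a common median and 6 also without deletion replicate 1. Of 15 pheromone-induced fusion genes 11 rose (73.3%), all 11 also with a common median and 10 without replicate 1. No member of either list fell. Their medians were 1.05 and 1.04 and their median gene lengths 630 and 1515 bp.

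MF(ALPHA)1, which encodes α-factor, showed the largest rise of all genes tested. Its signals were 56.4, 71.9 and 57.7 in the reference and 721.4, 699.2 and 603.7 in the deletion strain. Every deletion culture lay far above every reference culture, by 10.9-fold on average (log2 3.45, SE 0.143, adjusted p = 5e-06). The other genes that mark α cells did not move to that extent. SAG1, the α-agglutinin, gave 31.4, 36.6 and 30.5 against 61.8, 41.7 and 50.9, a rise of 0.63 (adjusted p = 0.042) that did not pass with a common median (adjusted p = 0.1). STE3, the a-factor receptor, gave 29.0, 38.1 and 31.3 against 41.2, 55.8 and 49.4 and did not pass the threshold (adjusted p = 0.053). The second α-factor gene, MF(ALPHA)2, stayed between 3.3 and 5.9 on all 6 arrays, below the floor, and AFB1 did not differ (log2 0.00, adjusted p = 0.99). The summed signal of the 4 α-cell markers was 122.7 to 150.6 in the reference and 708.6 to 827.7 in the deletion strain, and nearly all of the increase lay in MF(ALPHA)1. That of the 7 a-cell markers was 3939.9 to 4346.5 and 8145.8 to 8686.4. In RNA from whole cultures, a few cells of another type and a low level in every cell cannot be told apart.

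The a-cell genes rose by 1.39- to 2.51-fold over a wide range of levels. MFA1 and MFA2, which encode a-factor, are among the strongest signals of the array. MFA2 gave 1294.2, 1555.7 and 1459.5 in the reference and 3139.8, 2891.6 and 2843.3 in the deletion strain, a rise of 2.06-fold (log2 1.05, SE 0.11, adjusted p = 0.0011). MFA1 rose by 1.98-fold, on a probe set that is shared within a gene family by its name, and by 0.86 on the log2 scale on its other probe set. AGA2, the adhesive subunit of a-agglutinin, gave 254.1, 254.4 and 230.2 against 581.2, 531.5 and 491.7, and rose by 2.17-fold (adjusted p = 0.0011). BAR1, the secreted protease that destroys α-factor, gave 247.5, 210.8 and 268.4 against 526.0, 501.8 and 503.9, and rose by 2.12-fold (adjusted p = 0.0014). For each of these genes the strains were separated and the 3 cultures of a strain lay close together. STE2, the α-factor receptor, rose by 1.83-fold and ASG7 by 2.51-fold. STE6, the a-factor exporter, had the smallest difference (log2 0.48) and passed neither with a common median nor without replicate 1.

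Genes that pheromone switches on were higher as well, from low reference levels. FUS1, needed for cell fusion, gave 20.6, 27.2 and 18.4 in the reference and 56.7, 63.2 and 69.1 in the deletion strain (2.89-fold, adjusted p = 0.0017). PRM1, which acts in plasma membrane fusion, gave 32.3, 31.1 and 30.0 against 76.6, 83.1 and 119.0 (2.93-fold, adjusted p = 0.0017). PRM10, FUS2, FIG2 and PRM5 rose by 2.83-, 2.65-, 2.32- and 2.24-fold. SST2, which switches the pheromone signal off by acting on the G protein, gave 35.9, 27.4 and 40.8 against 93.9, 96.3 and 88.0 and rose by 2.71-fold (adjusted p = 0.0019). Among the 19 genes of the signalling chain itself, 4 rose (21.1%, against 13.1% of all genes), namely SST2, STE18, DIG2 and CDC42. Only SST2 also passed with a common median or without replicate 1. The induced genes thus differed more than the signalling components, whose median was 0.31. Of the 11 genes of mating type silencing, 1 passed, SIR1 at 0.52, and it passed neither with a common median nor without replicate 1. Markers of sporulating diploids were at low signals. SPO11 and SPS4 were below the floor on all 6 arrays, IME1 gave 43.3 to 46.9 in the reference and 55.3 to 84.7 in the deletion strain without passing the threshold (adjusted p = 0.051), and the summed signal of the 5 markers was 76.3 to 87.7 against 119.7 to 139.6.

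**Figure D2:**
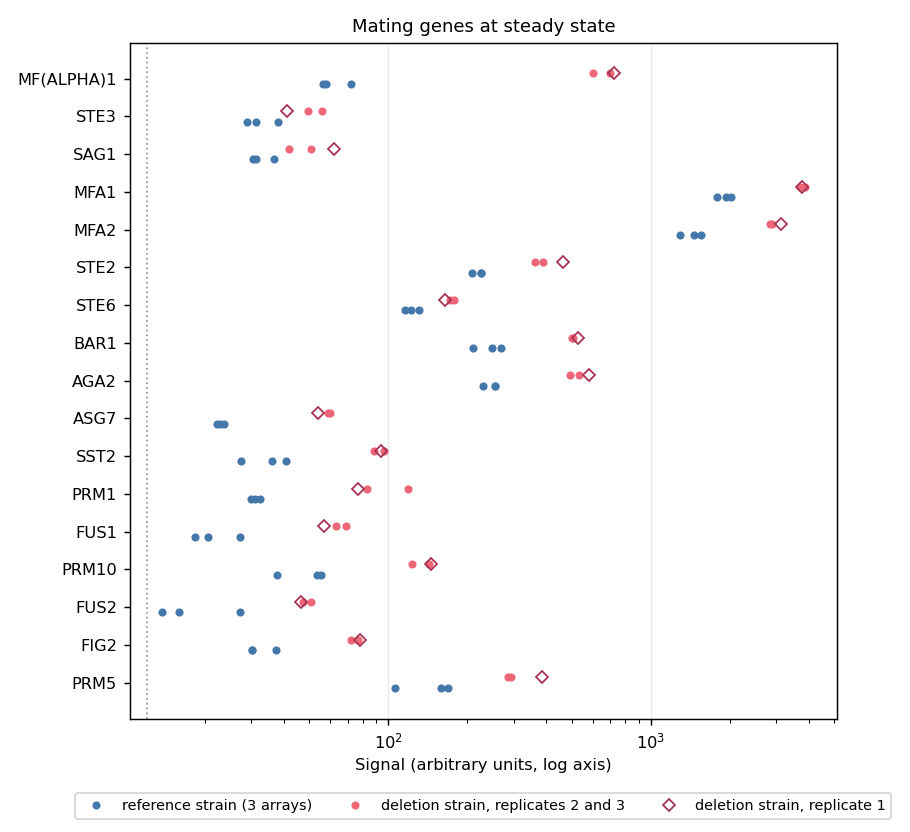
Signal (arbitrary units, log axis) of 17 mating genes on each steady state array, with the reference strain in blue, deletion replicates 2 and 3 in red and deletion replicate 1 as an open diamond. The genes are a selection that leaves out MF(ALPHA)2, which is below the floor, and AFB1, for which the strains overlap. The strains do not overlap for any gene shown, which also holds for every gene past the threshold and for 42.2% of all genes tested. MF(ALPHA)1 has the widest gap, 56.4 to 71.9 against 603.7 to 721.4.

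The 25 largest rises were stable between cultures. Their median range over the 3 deletion arrays was 0.28 on the log2 scale, and all 25 also passed without deletion replicate 1 and with a common median. GPP2 followed MF(ALPHA)1 in size. It encodes a glycerol-3-phosphate phosphatase, the last step of glycerol synthesis, and gave 53.7, 51.4 and 42.8 in the reference and 218.6, 253.5 and 231.4 in the deletion strain. The strains were wide apart (4.77-fold, log2 2.25, SE 0.147, adjusted p = 0.0001). Its paralogue GPP1 gave 382.3, 367.1 and 372.1 in the reference and 246.4, 455.2 and 463.4 in the deletion strain, and did not pass the threshold. STL1, which imports glycerol with protons, rose from 135.6, 104.4 and 134.5 to 285.8, 291.6 and 287.2 (2.33-fold, adjusted p = 0.0014). The enzymes that consume glycerol moved the other way. GUT1, glycerol kinase, gave 642.9, 701.7 and 607.5 against 324.6, 293.0 and 353.3, and fell by 1.01 on the log2 scale (adjusted p = 0.0017). GUT2, the mitochondrial glycerol-3-phosphate dehydrogenase, fell by 0.37 (adjusted p = 0.042) but did not pass without replicate 1 (adjusted p = 0.11). Of 18 glycerol and osmotic genes tested, 2 rose (11.1%, against 13.1% of all genes) and 3 fell (16.7%, against 5.77%). Their median length was 1849 bp. The third fall was that of SSK1, a response regulator of the osmotic pathway. All of these rises and falls but that of GUT2 also passed without replicate 1.

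Genes linked to multidrug transport formed a smaller group of rises. In yeast the zinc cluster factors Pdr1 and Pdr3 and the factor Yap1 control plasma membrane pumps that export drugs. The list for this function holds 20 tested genes, not all of them pumps, since it includes the regulator gene PDR3. Of the 20, 7 rose (35%, against 13.1% of all genes) and none fell. Their median was 0.42 and their median gene length 2025 bp. FLR1, a drug proton antiporter, gave 92.4, 81.3 and 92.9 against 269.3, 249.8 and 222.4 and rose by 2.78-fold (adjusted p = 0.00055). CIS1 gave 36.6, 48 and 38.1 against 129.0, 142.3 and 118.0 and rose by 3.19-fold (adjusted p = 0.00081). PDR5, the main ABC pump, gave 496.8, 532.2 and 488.9 against 1028.0, 1037.8 and 835.3 and rose by 1.9-fold (adjusted p = 0.0025). In each case the deletion cultures lay above all reference cultures. The 6 other PDR5 probe sets had lower signals and did not rise, with differences from -1.89 to 0.00, so this rise rests on 1 probe set. SNQ2, another ABC pump, rose by 1.6-fold. These 4 genes were the members that also passed with a common median and without replicate 1. The regulator gene PDR3 (log2 0.59) and PDR15 (log2 0.58) did not pass with a common median (adjusted p = 0.058 and 0.065).

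Several other large rises belonged to stress and transport genes. HSP30, a plasma membrane protein of the heat and weak acid response, gave 69.6, 120.5 and 108.4 against 414.8, 239.4 and 387.6 and rose by 3.49-fold (adjusted p = 0.0038). SSA3, a stress-induced Hsp70, rose by 2.55-fold and GRE1, a hydrophilin, by 2.87-fold. OSI1, named for its induction by oxidative stress, rose by 3.18-fold. The general stress marker HSP12 did not differ (log2 0.22, adjusted p = 0.33), so these rises were not shared by all stress genes. The list of cytosolic chaperones also holds the membrane protein HSP30. Of its 24 genes, with a median length of 1231 bp, 5 rose (20.8%, against 13.1% of all genes). Of these, HSP30 and SSA3 also passed with a common median and 2 without replicate 1. Of 30 genes of oxidative defence, with a median length of 718 bp, 5 rose (16.7%, near the 13.1% of all genes) and 1 fell. OYE2 (1.82-fold) and OYE3 (1.6-fold), which encode NADPH oxidoreductases, passed with both scalings, whereas GRX1, GLR1 and GRX5 did not. Without replicate 1, OYE2 was the only one of the 5 rises to pass, with OYE3 at an adjusted p of 0.059.

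MPH2, a maltose permease gene near a chromosome end, gave 19.8, 25.3 and 31.2 against 107.8, 106.5 and 105.7 and rose by 4.27-fold (adjusted p = 0.00055). Near-identical copies of it exist, and its signal may include theirs. HXT10, a hexose transporter gene that is normally little expressed, gave 8.1, 13.5 and 6.9 against 46.4, 43.9 and 41.9 and rose by at least 3.53-fold (adjusted p = 0.0004). PTR2, the importer of dipeptides and tripeptides, gave 75.4, 84.0 and 74.8 against 162.3, 265.6 and 236.2 and rose by 2.78-fold. Both strains were clearly separated at these loci. The thiamine genes THI4 and THI21 rose by 2.66- and 2.67-fold and EST3, a telomerase subunit, by 3.01-fold. The remaining genes among the 25 were YOL162W, YDL218W, YER187W, YCL048W-A, YJL218W and ARA2, a dehydrogenase of arabinose. Genes near chromosome ends passed about as often as others. Of the 10 outermost genes of each chromosome arm 150 were tested, and 18.7% passed, 21 higher and 7 lower, against 18.8% of all genes.

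**Figure D3:**
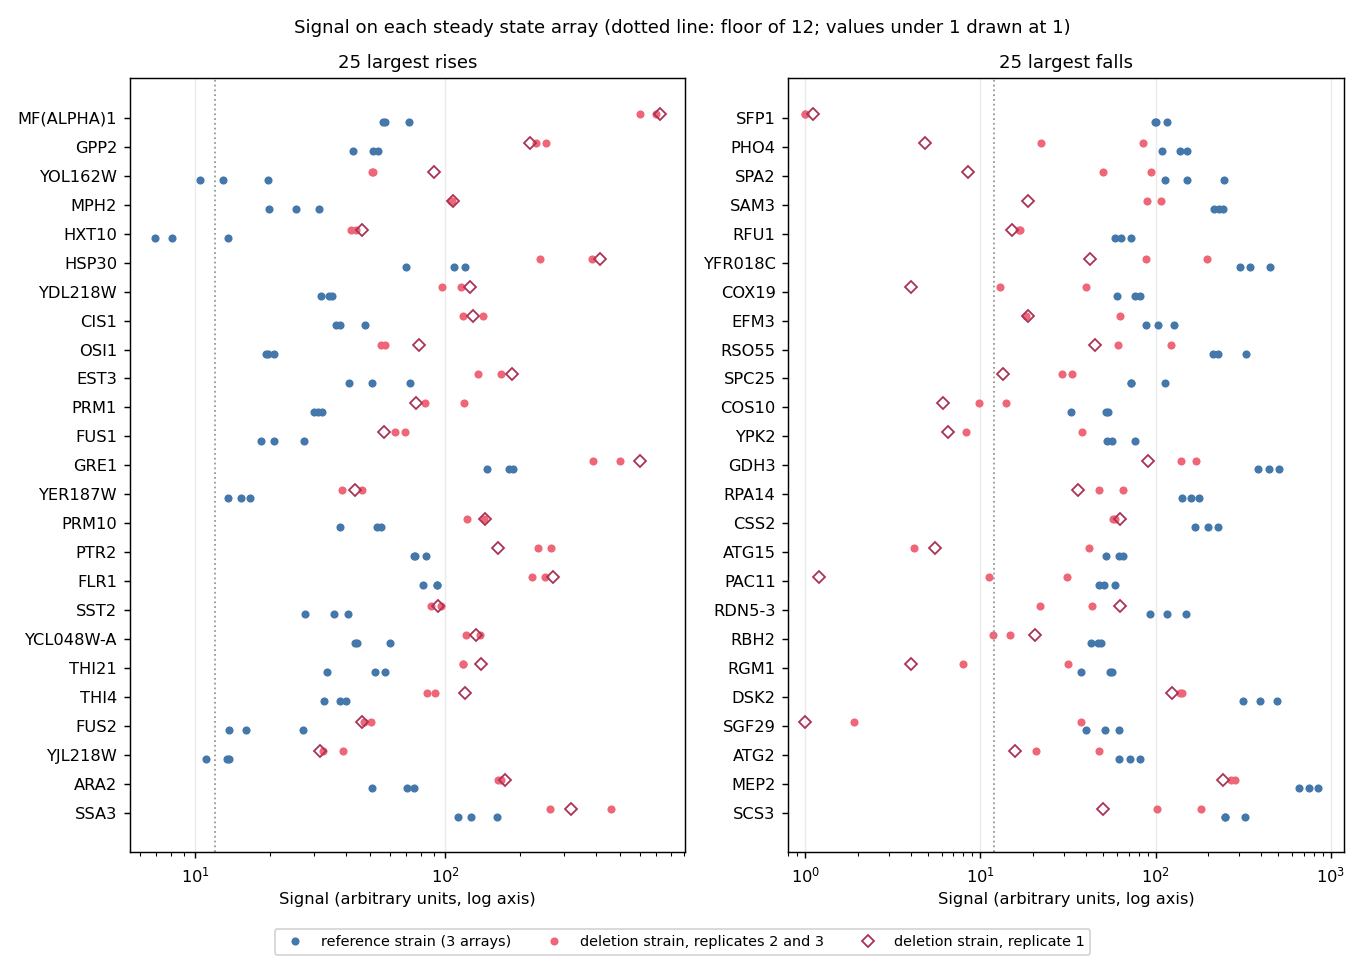
Signal (arbitrary units, log axis) on each of the 6 steady state arrays for the 25 genes of largest rise (left) and of largest fall (right) whose strains did not overlap. Deletion replicate 1 is the open diamond, the dotted line is the floor of 12, and values under 1 are drawn at 1. The deletion arrays of the rises lie close together, whereas those of many falls spread widely, with replicate 1 the lowest for most.

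The 25 largest falls were less uniform. The median range of their deletion arrays was 1.45 on the log2 scale, 16 of them ranged over more than 2-fold within the deletion strain and 1 within the reference, and deletion replicate 1 was the most extreme deletion array in 21. All 25 also passed with a common median, which is no check of them because that scaling makes falls larger. Without deletion replicate 1, 14 passed. PHO4, the activator of the phosphate regulon, shows the pattern, with 108.3, 151.9 and 137.0 in the reference and 4.8, 22.2 and 85.0 in the deletion strain. Replicate 3 came near the lowest reference culture, and without replicate 1 the fall of 1.59 did not pass (adjusted p = 0.09). SPA2, a scaffold of polarised growth, gave 112.8, 151.2 and 246.7 against 8.5, 49.9 and 94.4 (adjusted p = 0.048, and 0.084 without replicate 1), and its 6 other probe sets differed by -1.06 to -0.03. The other falls that did not pass without that array were COX19, EFM3, YPK2, ATG15, PAC11, RGM1, SGF29, ATG2 and SCS3. The 11 had a median deletion range of 1.74 and the 14 one of 0.81.

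Some falls were tight across cultures, among them those of RFU1 and DSK2, which act in ubiquitin handling. The ubiquitin system as a list did not fall. Of its 27 genes, with a median length of 1743 bp, 2 fell (7.41%, near the 5.77% of all genes). A further 2 rose (7.41%, against 13.1%), neither with a common median. RFU1, which inhibits a deubiquitinating enzyme and so controls free ubiquitin, gave 72.7, 58.5 and 63.1 in the reference and 15.2, 16.5 and 16.8 in the deletion strain, a difference of 3.99-fold (adjusted p = 0.00036). DSK2, which carries ubiquitinated proteins to the proteasome, gave 314.5, 490.7 and 391.8 against 124.7, 137.1 and 140.7 (2.93-fold, adjusted p = 0.0011). In both genes the lowest reference culture was more than the highest deletion culture by a wide margin. CSS2 fell by 1.72 on the log2 scale and COS10, of a repeated subtelomeric family, by 1.83. The fall of SAM3, the S-adenosylmethionine permease, was not tight. It gave 229.7, 214.4 and 242.2 against 18.8, 89.1 and 107.0, and passed with and without replicate 1 (adjusted p = 0.032 and 0.007). Its difference was -2.02 with that array and -1.23 without it.

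Nitrogen permeases moved in both directions. Ammonium enters yeast through the Mep permeases, and the Mep2 protein is also a sensor of scarce nitrogen. MEP2 gave 753.2, 654.2 and 844.1 in the reference and 242.2, 267.8 and 282.1 in the deletion strain, a fall of 2.83-fold (log2 -1.5, SE 0.13, adjusted p = 0.00055). MEP1 gave 357.1, 331.7 and 401.0 against 161.1, 169.5 and 168.2 and fell by 1.12 (adjusted p = 0.0011). PUT4, the proline permease, gave 1195.1, 1062.4 and 1289.0 against 549.1, 678.5 and 639.6 and fell by 0.93 (adjusted p = 0.0029). The deletion cultures formed a narrow band below the reference for all 3 genes. The allantoin permease DAL4 rose by 2.08-fold and the GABA permease UGA4 by 1.97-fold, both from signals near 20, and the 2 other UGA4 probe sets did not rise (log2 -0.20 and 0.00). The glutamine permease GNP1 rose by 1.93-fold but not with a common median. In all, 4 of 31 nitrogen genes rose (12.9%, against 13.1% of all genes) and 7 fell (22.6%, against 5.77%), with a median length of 1665 bp. Without replicate 1, 2 of the rises and 4 of the falls also passed.

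Branched-chain amino acid synthesis was the list with the largest share of falls, and it contains LEU2. Leucine and valine share their first steps from pyruvate, which Ilv enzymes carry out in mitochondria. The α-isopropylmalate made by Leu4 and Leu9 activates the regulator Leu3. Of 13 genes, 6 fell (46.2%, against 5.77% of all genes) and none rose, with a median of -0.36 and a median gene length of 1731 bp. The 6 were LEU2, LEU9, ILV6, ILV3, ILV5 and ILV2, and 4 of them, LEU2, LEU9, ILV6 and ILV3, also fell without deletion replicate 1. LEU9, a minor isopropylmalate synthase, gave 61.9, 65.6 and 56.0 against 26.8, 20.9 and 23.4 (2.59-fold, adjusted p = 0.0016). ILV6, the regulatory subunit of the first common enzyme, gave 654.2, 1113.1 and 794.0 against 284.0, 331.5 and 387.2 (2.51-fold, adjusted p = 0.0045). The fall of these genes did not extend to the whole pathway. LEU4, the main synthase, gave 2022.8, 2064.0 and 2162.7 against 2426.2, 2295.6 and 2018.0 (adjusted p = 0.5), and LEU1 gave 681.0, 638.8 and 600.2 against 815.2, 880.3 and 756.6 without passing (adjusted p = 0.055). BAT1, BAT2, ILV1, OAC1 and LEU3 did not pass the threshold either. Whether these values go with SFP1 or with the altered LEU2 locus cannot be told apart.

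Other amino acid genes fell in part. Of 58 genes, with a median length of 1287 bp, 9 fell (15.5%, against 5.77% of all genes) and 4 rose (6.9%). Of the 9, 5 also passed without replicate 1, and none of the 4 passed without it or with a common median. GDH3, which assimilates ammonium into glutamate, gave 383.4, 440.7 and 507.6 against 91.0, 139.6 and 169.6 and fell by 3.41-fold (adjusted p = 0.0019), with replicate 1 lowest but all cultures far below the reference. HOM2 and HOM3, of the threonine and methionine branch, fell by 0.89 and 0.71, ARO4 by 0.79 and ARG1 by 0.74. Of 25 sulfur genes 4 fell (16%), MET8, CYS4, SAM1 and SUL1, and of these MET8 also fell without replicate 1.

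Nucleotide synthesis had 6 falls among 39 genes (15.4%, against 5.77% of all genes) and 1 rise, with a median length of 1473 bp. Without replicate 1, 4 of the falls also passed and the rise did not. FUR1, which salvages uracil, gave 248.0, 327.9 and 218.3 against 88.6, 91.5 and 103.2, a fall of 2.77-fold (adjusted p = 0.0014). IMD3, an IMP dehydrogenase of guanine nucleotide synthesis, gave 858.1, 1016.3 and 960.2 against 440.7, 466.7 and 482.6, a fall of 2.04-fold (adjusted p = 0.0012). The strains were separated at both genes with little spread in the deletion strain. IMD2 fell by 0.70, and since the IMD genes are near-identical and their probe sets are named as shared, they are not independent of each other. PRS5, URA8 and ADE3 fell by 0.59, 0.54 and 0.46, and neither URA8 nor ADE3 passed without replicate 1.

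**Figure D4:**
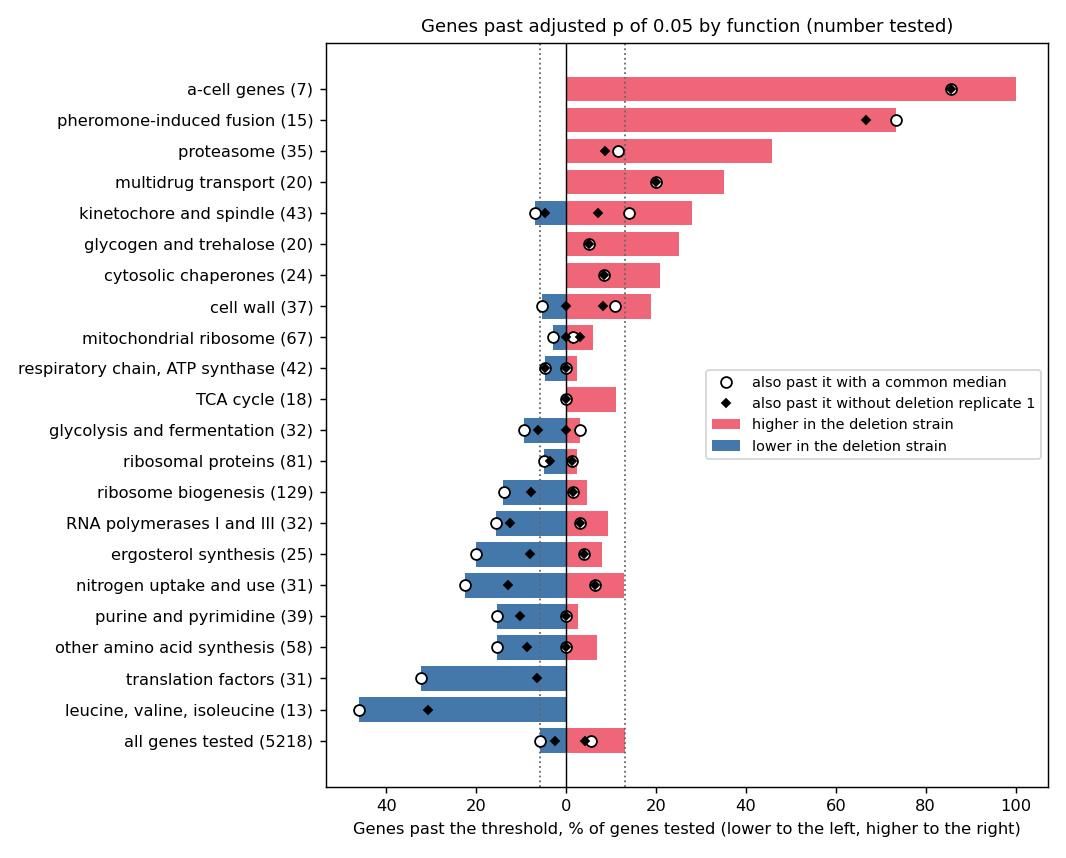
Bars give the percentage of tested genes of each function past an adjusted p of 0.05, higher in the deletion strain to the right (red) and lower to the left (blue), with the number tested in parentheses. Open circles mark the calls that also passed with a common median and filled diamonds those that also passed without deletion replicate 1. Both are percentages of the genes tested, as the bars are. The dotted lines are the shares over all genes, 13.1% and 5.77%. The a-cell and fusion genes keep most of their rises under both, whereas 4 and 3 of the 16 proteasome rises remain.

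Carbon metabolism showed changes in single enzymes rather than in whole pathways. Hexokinase 2 phosphorylates glucose and takes part in glucose repression. HXK2 gave 1156.3, 1214.5 and 1033.9 in the reference and 532.2, 671.2 and 507.8 in the deletion strain, a fall of 2-fold (SE 0.134, adjusted p = 0.0029). PDC1, the main pyruvate decarboxylase, gave 2285.0, 2987.5 and 2489.7 against 1191.6, 1631.7 and 1560.2 and fell by 0.83 (adjusted p = 0.0094). GLK1, glucokinase, fell by 0.44 but did not pass without replicate 1 (adjusted p = 0.082). Of 32 genes of glycolysis and fermentation, 3 fell (9.38%, against 5.77% of all genes) and 1 rose (3.12%, against 13.1%). Of these, HXK2 and PDC1 also passed without replicate 1. TDH3 differed by 0.06 (adjusted p = 0.77). PCK1, the first committed enzyme of gluconeogenesis, gave 512.8, 558.1 and 562.8 against 1223.4, 1337.6 and 1335.2 and rose by 2.38-fold (log2 1.25, SE 0.105, adjusted p = 0.00047). The cultures of each strain were tightly grouped. The other 15 genes of that list did not share the rise, and JEN1, the lactate permease, and ACS2 fell by 0.38 and 0.47, though neither passed without replicate 1. RGT2, a sensor of abundant glucose, and RGT1, the repressor of hexose transporters, fell by 0.66 and 0.53, neither of them past the threshold without replicate 1.

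Genes of the pentose phosphate pathway moved in both directions. Of 13 genes, with a median length of 1002 bp, 2 fell (15.4%, against 5.77% of all genes) and 2 rose (15.4%, against 13.1%). ZWF1, glucose-6-phosphate dehydrogenase and the source of much cytosolic NADPH, gave 571.0, 698.4 and 614.3 against 222.5, 308.9 and 366.5 and fell by 1.09 (adjusted p = 0.0065). TKL1, the main transketolase, gave 1011.3, 1193.9 and 938.9 against 526.5, 485.4 and 519.2 and fell by 1.03 (adjusted p = 0.0016). Its paralogue TKL2 gave 88.2, 65.4 and 102.6 against 204.1, 134.5 and 198.7 and rose by 1.07 (adjusted p = 0.013, and 0.056 without replicate 1), with 0.48 and 0.57 on its other probe sets. NQM1, the minor transaldolase, rose by 0.72. No strain overlapped the other at these genes, and the 9 other genes of the pathway did not pass. In storage metabolism 5 of 20 glycogen and trehalose genes rose (25%), and 1 of them, PIG2, also passed with a common median and without replicate 1.

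Lipid genes fell in part. Of 25 ergosterol genes, with a median length of 1332 bp, 5 fell (20%, against 5.77% of all genes) and 2 rose (8%, against 13.1%). Of 22 phospholipid and fatty acid genes, with a median length of 1518 bp, 4 fell (18.2%) and 2 rose (9.09%). Without replicate 1, only 2 of the 5 and 1 of the 4 falls passed, and 1 of the 4 rises. HMG1, the HMG-CoA reductase that sets the flow into sterols, gave 1623.7, 2096.2 and 1833.8 against 1042.9, 1058.1 and 1033.1 and fell by 0.82 (adjusted p = 0.004). ERG28, a scaffold of the sterol demethylation complex, fell by 0.94, and both also fell without replicate 1. OLE1, the only fatty acid desaturase, gave 1953.1, 2343.4 and 1951.3 against 1322.3, 1291.0 and 1287.6 and fell by 0.67 (adjusted p = 0.0065). INO1, OPI3 and ELO3 fell by 0.51, 0.54 and 0.50, and none of them passed without replicate 1. YAT1, a carnitine acetyltransferase, fell by 1.33 (adjusted p = 0.0059).

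Mitochondrial energy genes were mostly level. Of 42 genes of the respiratory chain and ATP synthase, 2 fell and 1 rose, 7.14% in all against 18.8% of all genes, and the 2 falls also passed without replicate 1. The median length of these genes was 454 bp. NDI1, the internal NADH dehydrogenase, fell by 0.86 and CYC1, the aerobic cytochrome c, by 0.66. CYC7, the hypoxic cytochrome c, rose by 0.93 but not with a common median. Of 67 mitochondrial ribosomal proteins 4 rose and 2 fell, 8.96% in all, and 2 of the rises and none of the falls passed without replicate 1. Of 18 genes of the TCA cycle 2 rose, neither with a common median nor without replicate 1. HAP4, the activating subunit of the respiratory regulator, did not pass (log2 -0.24, adjusted p = 0.23). SOD2, the mitochondrial superoxide dismutase, fell by 0.70.

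Protein synthesis, the known domain of Sfp1, differed in part. Of 31 translation factors 10 fell (32.3%, against 5.77% of all genes) and none rose, with a median of -0.24 and a median gene length of 1311 bp, and 2 of the 10 also fell without replicate 1. TEF4, a subunit of elongation factor 1B, gave 366.4, 493.8 and 380.7 against 192.7, 218.0 and 244.5 and fell by 0.92 (adjusted p = 0.0066), and TIF4631, the scaffold eIF4G, fell by 0.72 (adjusted p = 0.01). RNA polymerase I makes the large ribosomal RNA precursor, and of 32 genes of polymerases I and III, with a median length of 901 bp, 5 fell (15.6%) and 3 rose (9.38%). Of these, 4 falls and 1 rise also passed without replicate 1. Its stalk subunit gene RPA14 gave 141.1, 176.3 and 160.1 against 36.1, 47.3 and 65.0 and fell by 3.3-fold (adjusted p = 0.0019). RPA135, its second largest subunit, gave 286.4, 318.7 and 307.4 against 151.4, 151.3 and 179.0 and fell by 0.92 (adjusted p = 0.0031), and RPA190, the largest, by 0.68. The subunit gene RPB5, which all 3 polymerases share, fell by 0.84 and the initiation factor gene RRN3 by 0.70, the latter not without replicate 1 (adjusted p = 0.054). RRN10, of the upstream activating factor, rose by 0.92 against this direction. The deletion cultures were separated from the reference for each of these genes.

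Of 129 ribosome biogenesis genes, with a median length of 1536 bp, 18 fell (14%, against 5.77% of all genes) and 6 rose, and 10 of the 18 and 2 of the 6 also passed without replicate 1. Among the falls were NOP1, the rRNA methyltransferase, at -1.15 and NSR1, a nucleolar protein, at -0.74. Ribosomal proteins with a probe set of their own showed few differences, 4 falls and 2 rises among 81 (7.41% in all), with a median of -0.02, and 3 of the falls and 1 rise also passed without replicate 1. RPL3, a core protein of the large subunit, gave 1321.5, 1283.9 and 1149.8 against 436.2, 639.3 and 790.4 and fell by 1.05 (adjusted p = 0.0099). Among regulators of these genes RAS1 rose by 1.01 and IFH1, a coactivator of ribosomal protein genes, fell by 0.61 with all arrays and not without replicate 1 (adjusted p = 0.081). Of 21 tRNA synthetases 4 fell (19%), none of which passed without replicate 1.

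Proteasome genes shifted slightly upwards together. Of 35 subunit genes 16 rose (45.7%, against 13.1% of all genes) and none fell, with a median of 0.44 against 0.14 over all genes and a median gene length of 864 bp. With a common median 4 of them passed and the median was 0.28, and without deletion replicate 1 3 passed. PRE9, a subunit of the core ring, gave 272.5, 280.5 and 247.1 against 463.1, 399.6 and 411.9 and rose by 1.59-fold (adjusted p = 0.0083). PRE6, of the same ring, rose by 1.51-fold and, without replicate 1, was just outside the threshold (adjusted p = 0.055). RPN13, SEM1, RPN6 and RPT3 rose by 1.64-, 1.62-, 1.55- and 1.49-fold, none with a common median. RPN4, the activator of these genes, gave 332.9, 373.8 and 328.6 against 456.1, 439.4 and 435.6, a rise of 0.36 (adjusted p = 0.048) that did not pass with a common median. In the endoplasmic reticulum none of 19 folding genes rose and 3 fell (15.8%, against 5.77% of all genes), 1 of them, IRE1, also without replicate 1. IRE1, the sensor of unfolded proteins, fell by 0.81, and HAC1, the factor whose RNA it splices, by 1.06, the latter not without replicate 1 (adjusted p = 0.094).

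Cell division genes changed at single loci. Of 43 kinetochore and spindle genes 12 rose (27.9%, against 13.1% of all genes) and 3 fell, with a median of 0.25 and a median length of 1323 bp. Of the 12, only 3 also passed without deletion replicate 1 and 6 with a common median, and of the 3 falls 2 passed without that array. BIM1, which binds microtubule ends, gave 47.5, 41.0 and 52.8 against 136.1, 94.6 and 85.2 and rose by 2.2-fold (adjusted p = 0.0083). DAD1 and DAD2, of the ring that couples kinetochores to microtubules, rose by 1.86- and 2.24-fold. SPC25, of the Ndc80 complex, gave 72.6, 113.7 and 72.6 against 13.5, 29.1 and 33.2 and fell by 3.58-fold (adjusted p = 0.0088). All cultures of the strains were apart in both directions. CLN3, the cyclin that starts the cycle, gave 90.1, 116.0 and 141.1 against 69.7, 59.1 and 90.3, which overlap, and did not pass (adjusted p = 0.057). WHI5 and STB1, which act at the same step, fell by 0.70 and 0.89 at signals near the floor, and not without replicate 1. Histone genes with probe sets of their own were few, and HTZ1 and CSE4, the variant histones, rose by 1.98- and 1.71-fold, neither without replicate 1.

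The 5 min arrays, 2 of each strain, gave a second view of the same genes on RNA from after the pulse. The labels do not say whether these came from the same cultures. Of the 682 genes higher at steady state 630 (92.4%) were also higher at 5 min, where 63.0% of all genes were, and of the 301 lower 270 (89.7%) were also lower, where 36.1% of all genes were. MF(ALPHA)1 was higher by 3.22 on the log2 scale and RFU1 lower by 3.14 at 5 min (log2 -3.14). FLR1, MPH2, HSP30 and PCK1 differed by 1.57, 2.22, 1.77 and 1.68, much as before the pulse. GPP2 did not keep its difference, which was 0.12 at 5 min and 1.56 at 120 min. The 14 largest falls that passed without deletion replicate 1 had a median of -1.27 at 5 min and the 11 others one of -0.38. PHO4 was at -0.38, SPA2 at -0.18 and ATG15 at -0.19. At 120 min 91.5% of the higher genes were still higher, against 76.1% of all genes, and 67.4% of the lower ones lower, against 21.8%. No test was made on these values, since each time has 2 arrays per strain and is not part of the steady state comparison.

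**Figure D5:**
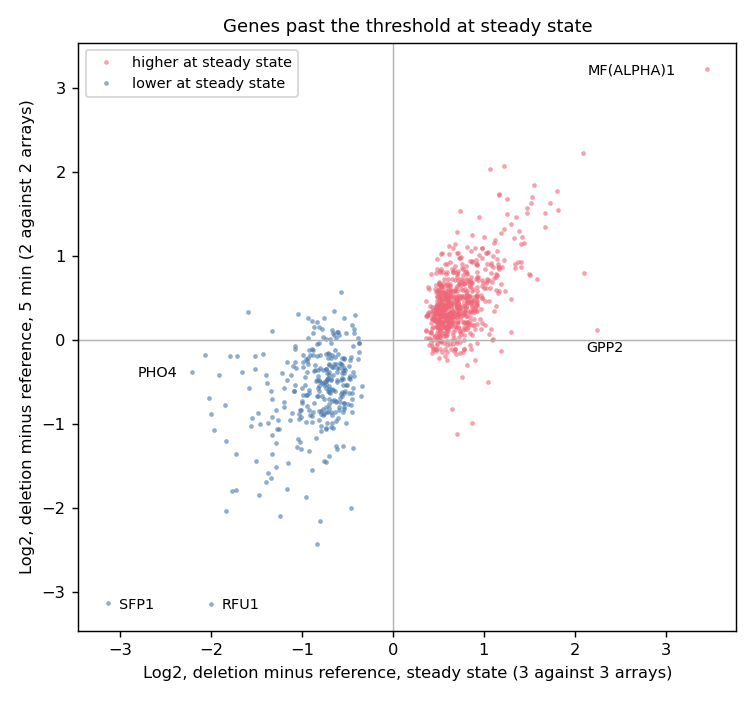
Log2 difference, deletion minus reference, at steady state (horizontal axis, 3 against 3 arrays) and at 5 min after the glucose pulse (vertical axis, 2 against 2 arrays) for the 983 genes past the threshold at steady state. Each point is a gene, red where higher and blue where lower at steady state. MF(ALPHA)1, SFP1 and RFU1 lie far out on both axes, whereas GPP2 and PHO4 are near 0 at 5 min.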

How the data were processed

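Labelled RNA of 6 chemostat cultures, 3 per strain, was measured on Affymetrix yeast arrays, per the labels' protocols. The authors deposited 1 linear intensity for each probe set, computed in GCOS per the submitters' processing notes. Its version, algorithm and scaling are not stated there. The 2% trimmed mean of the intensity lay between 150.1 and 150.2 on every array, so the values were used without further scaling. Median signals of the 6 arrays were 43.7 to 48.2, and precision is limited by the number of arrays.

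Of 9335 probe sets, 60 are controls, 6504 name 1 gene in the platform annotation, 328 several and 2443 none. All 5656 genes matched the RefSeq R64 gene table. For 315 genes with more than 1 probe set, that of highest mean log2 over the series was used. Signals were floored at 12 and log2 was taken, so that folds against arrays at the floor are lower bounds. Genes above the floor on fewer than 2 of the 6 arrays (438) were left out. The strains were compared with limma 3.58.1 (lmFit and eBayes with trend = TRUE, 4 residual and 5.38 prior degrees of freedom) in R 4.3.3, two-sided, with Benjamini-Hochberg adjustment over 5218 genes and a threshold of 0.05. Only the steady state arrays entered the fit. The procedure was tested on simulated data.

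The genes, the 56 gene lists and the tests were chosen with earlier results of these data known. Genes named are SFP1 and LEU2 with their neighbours, the 25 largest rises and falls whose strains did not overlap, up to 6 of the genes past the threshold in each list, all a-cell, α-cell and branched-chain genes, and 9 markers. Alternatives were another scaling, floor, filter, threshold or probe set, the replicate number as a block, other arrays in the fit, and each array left out in turn. Promoter sequences were not used here. Plots used matplotlib 3.10.9 under Python 3.11.15.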

Additional observations from a re-analysis of the deposited data

Results flagged for a closer look

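Among the genes named, 33 strain differences had the opposite sign at 5 or 120 min after the pulse, with every array of each strain apart in both comparisons. The change of sign was not tested, each pulse time has 2 arrays per strain, and all values are log2 of deletion minus reference at the time given. At 120 min the median over all genes was 0.41, so the genes below that were lower at steady state and higher at 120 min went the same way as that general shift, and OLE1, ILV5, ACS2 and RGT1 lay below it.

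At 5 min 4 such genes were found. RPS28B, RRP46 and PEX21, which were higher at steady state, were at -0.44, -0.21 and -0.11. The steady state rises of RRP46 and PEX21 passed neither with a common median (adjusted p = 0.12 and 0.15) nor without deletion replicate 1. RDN5-3, a 5S ribosomal RNA gene with many copies, was lower at steady state and at 0.33.

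At 120 min 7 genes that were higher at steady state were lower. RPS28B was at -0.97, RPS27A at -0.4, ZPS1 at -0.87, UTR2 at -0.51, HEM13 at -0.33, YDJ1 at -0.21 and ROX3 at -0.14. The steady state rises of RPS27A and YDJ1 passed neither with a common median (adjusted p = 0.14 and 0.28) nor without deletion replicate 1.

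The 22 genes that were lower at steady state and higher at 120 min include several of respiration and oxygen defence. CYC1 was at 1.88, SOD2 at 1.84 and NDI1 at 1.22. Genes of lipid and sterol synthesis were HMG1 at 1.55, OPI3 at 1.09, ERG28 at 0.83 and OLE1 at 0.12. Among genes of carbon use, GUT2 was at 1.49, GLK1 at 0.72, JEN1 at 0.67, RGT1 at 0.37 and ACS2 at 0.31. Several of the genes had far lower signals in both strains at 120 min than at steady state. GUT2 gave 23.5 to 83.3 against 944.5 to 1334.0, JEN1 28.3 to 58.2 against 1309.8 to 2017.6, and OPI3 41.8 to 104.8 against 534.3 to 1057.8. OLE1 did not, with 1641.1 to 1931.2 against 1287.6 to 2343.4. Amino acid, nucleotide and nitrogen genes were SER3 at 0.99, URA8 at 0.73, PUT4 at 0.51 and ILV5 at 0.29. PRB1, a vacuolar protease, was at 1.54, IZH1 at 0.98, HMX1 at 0.89, STB1 at 0.87, SPA2 at 0.63 and SSK1 at 0.44.

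Probe sets that the platform annotation gives no gene were fitted in the same way. Of 736 above the floor on enough arrays, 57 were higher (7.74%) and 31 lower (4.21%) in the deletion strain, against 13.1% and 5.77% of the genes. The largest rises were those of 9937_at (2.39), 6965_i_at (2.23), 3744_i_at (2.0), 9847_at (1.85) and 3565_at (1.68). The first gave 28.3, 30.7 and 27.4 in the reference and 123.4, 179.6 and 153.3 in the deletion strain, a difference of 5.23-fold (adjusted p = 0.0038 by limma). The largest falls were those of 4309_i_at (-2.01), 7514_at (-1.65), 3406_f_at (-1.37), 3582_f_at (-1.37) and 3921_s_at (-1.27). What these sets measure is not stated in the tables used here.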

How the results depend on the processing

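No named gene past the threshold changed direction under any alternative run, but the balance of the directions did, with more falls than rises under the other scalings. Of the named genes that did not pass, TDH3, RPL31B and LEU4 went from 0.06, 0.08 and 0.11 to -0.10, -0.08 and -0.06 with a common median. As deposited, 983 genes passed, 682 higher and 301 lower. With all 26 arrays in the fit 304 passed, 197 higher and 107 lower, and without the 2 discordant deletion arrays of other times 1442 passed, 990 higher and 452 lower. A common median gave 283 higher and 441 lower, and quantile normalization 369 higher and 400 lower. With no filter on low signals 576 passed, 416 higher and 160 lower. An adjusted p of 0.01 left 205, 131 higher and 74 lower, and a 2-fold minimum 164, 86 higher and 78 lower. Leaving out 1 array at a time gave 225 to 1105 genes, 149 to 720 higher and 76 to 385 lower. The count fell by over 1.5 times without reference replicate 1 (557), reference replicate 3 (417), deletion replicate 1 (365) and deletion replicate 2 (225), and was 917 and 1105 without reference replicate 2 and deletion replicate 3. Deviations from the strain means correlated at 0.14, -0.077 and 0.084 for equal replicate numbers and at -0.245 to 0.159 for unequal ones. Not every array correlated best with its own number. With 3 arrays per strain these values cannot decide whether the numbers pair cultures, and the labels do not say. The replicate number as a block gave 1026 genes, 676 higher and 350 lower. A floor of 48, no floor, a signal minimum of 96, every probe set and no intensity trend each stayed within 1.5 times. Of 289 genes named, 168 no longer passed with all 26 arrays, 163, 137 and 29 without deletion replicate 2, 1 and 3, 96, 45 and 120 without reference replicate 1, 2 and 3, 103 with no filter, and 71 with a common median. The arrays carry no measure of RNA per cell, genes near the floor have only bounds, and 3 cultures per strain limit small differences. No promoter sequences were searched. The causes were not tested.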

Other observations

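Among metal and heme genes, 20% of 30 iron and copper genes passed, near the 18.8% of all genes, against 33.3% of 9 heme genes and 30% of 10 zinc genes, which are 3 genes each. Of the iron and copper genes 4 rose and 2 fell, and 1 of the 6 also passed without deletion replicate 1. ISU2, a scaffold for iron-sulfur clusters, gave 133.9, 117.7 and 156.5 in the reference and 253.2, 271.3 and 305.8 in the deletion strain and rose by 2.04-fold (adjusted p = 0.0038 by limma). In heme synthesis HEM13, an oxygen-dependent step known to rise when oxygen or heme is short, gave 47.5, 40.7 and 42.7 against 84.5, 95.7 and 85.5 and rose by 2.03-fold (adjusted p = 0.004). HMX1, which breaks heme down, fell by 0.70 but not without deletion replicate 1. Of 10 zinc genes, ZPS1 rose by 1.82-fold and ZRT2 and IZH1 fell by 0.58 and 0.56, and ZRT2 did not pass without deletion replicate 1.

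At the cell surface 7 of 37 genes rose (18.9%, against 13.1% of all genes) and 2 fell, and 3 of the rises also passed without deletion replicate 1. TIR3, a mannoprotein of anaerobic and cold growth, gave 71.2, 56.8 and 82.8 against 126.5, 146.9 and 247.1 and rose by 2.39-fold (adjusted p = 0.013), with replicate 3 the highest. SPI1, UTR2 and CWP1 rose by 1.81-, 1.71- and 1.61-fold, each also with a common median, and SPI1 did not pass without deletion replicate 1 (adjusted p = 0.051). CIS3 and TOS6 fell by 0.78 and 0.94, neither without deletion replicate 1. In DNA replication and repair 4 of 43 genes rose (9.3%) and none fell, 2 of them also without replicate 1. HUG1, a small inhibitor of ribonucleotide reductase induced by DNA damage, gave 10.3, 10.9 and 8.5 against 17.1, 25.3 and 26.4, at least 1.88-fold (adjusted p = 0.014). BUB3, of the spindle checkpoint, rose by 1.86-fold and was the only one of 29 mitotic regulators past the threshold. Of 16 daughter separation genes 5 rose (31.2%, against 13.1% of all genes), 1 of them, DSE2, also with a common median and without replicate 1. Of 43 vesicle traffic genes 6 rose (14%) and 1 fell, with YPT31 and BOS1 (1.52- and 1.55-fold) past the threshold with both scalings and without replicate 1, the only members to pass without it.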
